A study of Mus musculus with 9 samples.

Results

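Expression of 37 genes of glycolysis, sugar transport and the pentose phosphate pathway was examined in microglia sorted from the brains of female wild-type C57BL/6N mice of 12 weeks. The members were taken by name from a list of enzymes, transporters and regulators that was drawn up with earlier results of these data known, and they were 37 of the 23238 gene symbols in the count tables. Of these, 36 had at least 1 count in any library and passed the filter on low counts. The enolase gene Eno1 was listed at 0 in all 9 libraries.

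The 9 libraries formed 3 groups of 3, and every library pooled 3 mice taken on day 1. Normal mice were untreated. NMO mice received a unilateral striatal injection of NMO-IgG, which is IgG purified from the plasma of patients with neuromyelitis optica, together with human complement. NMO+CL mice received the same injection and, 6 h before it, clodronate liposomes given intraperitoneally to deplete monocytes and macrophages. Cells positive for CD45, CD11b and P2ry12 were sorted. Mice given control IgG or empty liposomes were not analysed here, so the surgery, the antibody and complement cannot be told apart in NMO against Normal, nor clodronate from its carrier in NMO+CL against NMO. The sort used P2ry12, whose own transcript fell by 2.22 on the log2 scale from NMO to NMO+CL (edgeR adjusted p = 1.73e-05).

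QuantSeq libraries were sequenced, in which a read comes from near the poly(A) tail of a transcript. Totals ran from 5788234 to 7837219 counts per library, and the ribosomal entry Rn45s took 16.0% to 31.0% of them. Outside Rn45s, the members took up 0.345% to 0.359% of the Normal counts, 0.367% to 0.410% of those of NMO and 0.385% to 0.422% of those of NMO+CL. All 12 homeostatic microglia markers were detected in these libraries, with summed levels of 39573 to 44039 counts relative to library size (CPM, which scales each library to the same total) in Normal, 32891 to 38233 in NMO and 22783 to 30780 in NMO+CL.

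Glucose enters cells through transporters of the SLC2A family and is trapped by hexokinases as glucose 6-phosphate. Glycolysis turns this sugar into pyruvate, which is either reduced to lactate by lactate dehydrogenase or oxidised in mitochondria through pyruvate dehydrogenase, a complex that the pyruvate dehydrogenase kinases switch off. The pentose phosphate pathway takes glucose 6-phosphate aside to make NADPH and ribose. Macrophages and microglia are known to raise glycolysis when inflammatory receptors are engaged, and HIF-1α is a known activator of many of these genes.

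The question of the first comparison was how sorted microglia differed 1 day after the lesion. Calls required an adjusted p below 0.05 in edgeR's quasi-likelihood F-test, fitted to all 9 libraries, with Benjamini-Hochberg adjustment over 12292 genes. In NMO against Normal, 0 of the 36 tested members were called, where 0.496% of all tested genes were. At an unadjusted p under 0.05 there were 9 members (25.0%), against 9.51% of all genes, and the DESeq2 Wald test called 3 (8.33%, against 1.81% of all genes). The libraries of the 2 groups did not overlap for 15 members. In 11 of them NMO was higher (30.6% of the members, against 9.21% of all genes). These were Hk2, Gpi1, Pfkp, Pfkfb2, Gapdh, Pgk1, Pgam1, Pkm, Ldha, G6pdx and Pgd. NMO was lower in 4 (11.1%, against 8.2% of all genes), namely Slc2a5, Pfkfb4, Ldhb and Pdk2.

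The comparison of NMO+CL with NMO addresses the treatment with clodronate liposomes within the lesion model. Here 2 members were called, the fructose transporter Slc2a5 and the hexokinase Hk3. Both fell. This was 5.56% of the members, where 1.59% of all genes were called and 1.07% were called lower. The count was 1 without any 1 library other than NMO replicate 3 and NMO+CL replicate 1, and 3 without the latter. At an unadjusted p under 0.05 there were 8 members (22.2%), against 12.4% of all genes. The groups did not overlap, with NMO+CL higher, for 7 members (19.4%, against 7.89% of all genes), namely Slc2a1, Gpi1, Aldoa, Gapdh, Pgam1, Pkm and Pgd. NMO+CL was lower in all its libraries for 5 members (13.9%, against 9.22%), namely Slc2a5, Hk3, Pfkm, Ldhb and Pdk1.

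Between NMO+CL and Normal, 10 members were called (27.8%, against 9.23% of all genes). Rises were called for 7 of them (19.4%, against 4.79%), which were Slc2a1, Hk2, Gpi1, Gapdh, Pkm, Ldha and Pgd. With the replicate number as a block, or without any 1 Normal library or NMO+CL replicate 1 or 2, the rises called were 4. Falls were called for 3 (8.33%, against 4.43%), which were Slc2a5, Hk3 and Ldhb. NMO+CL lay above Normal without overlap for 9 members (25.0%, against 13.8% of all genes) and below it for 6 (16.7%, against 14.9%). The 9 added Pgam1 and Slc16a1 to the called rises, and the 6 added Hk1, Pfkfb4 and Pdk2 to the called falls. The 3 comparisons share libraries pairwise, so their results are not independent of each other.

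Against Normal, the 36 members had a median log2 fold change of 0.16 in NMO and of 0.46 in NMO+CL. For NMO+CL against NMO their median was 0.13. Over all tested genes it was -0.01 in each comparison. The medians of the members depended on single libraries. Leaving out Normal replicate 1 gave 0.31 for NMO against Normal, leaving out NMO replicate 1 gave 0.11 and leaving out its replicate 2 gave 0.076, while scaling by library totals gave 0.27. That of NMO+CL against NMO was 0.065 without NMO replicate 3 and 0.030 without NMO+CL replicate 2, and that of NMO+CL against Normal was 0.30 without NMO+CL replicate 2. In these bulk samples, fewer cells of a type and less RNA per cell cannot be told apart. The plot of called members by library shows the values that the next paragraphs describe.

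**Figure D1:**
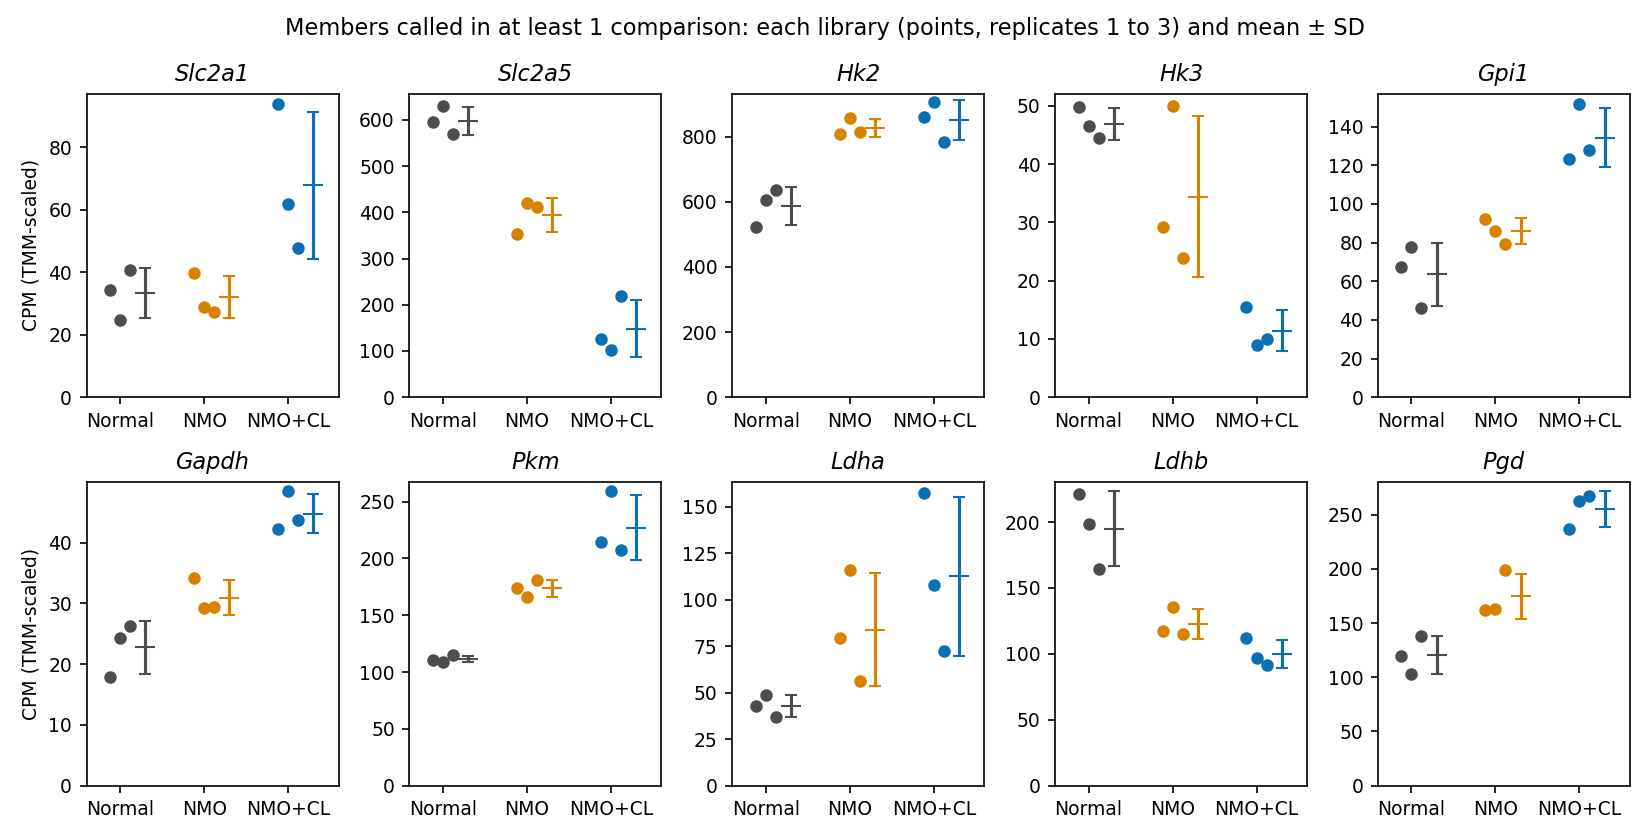
Level of the 10 members called in at least 1 comparison, in CPM on TMM-scaled library sizes (vertical axes, each starting at 0), for Normal (grey), NMO (orange) and NMO+CL (blue). Points are the 3 libraries of a group and the bars beside them the mean ± SD. Slc2a5, Hk3 and Ldhb are lowest in NMO+CL and Slc2a1, Gpi1, Gapdh, Pkm and Pgd are highest there. Every NMO+CL library of these genes lies outside the range of the other groups.

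Regulatory sequence was compared for members of 1 family that moved in opposite directions in NMO+CL against Normal. The printed stretches are the 250 bases before the RefSeq transcription start (GRCm38.p6), 5′ to 3′ on the gene's strand, for the transporters Slc2a1 and Slc2a5, the hexokinases Hk2 and Hk3, and the lactate dehydrogenases Ldha and Ldhb. Capitals mark the letters ACGTG or its reverse complement CACGT, 1 form of the core of the hypoxia response element, which HIF-1α is known to bind. The form GCGTG was not searched. The palindrome CACGTG holds both and is also the core of an E-box.
Slc2a1 (chr4:119108495-119108744, plus strand): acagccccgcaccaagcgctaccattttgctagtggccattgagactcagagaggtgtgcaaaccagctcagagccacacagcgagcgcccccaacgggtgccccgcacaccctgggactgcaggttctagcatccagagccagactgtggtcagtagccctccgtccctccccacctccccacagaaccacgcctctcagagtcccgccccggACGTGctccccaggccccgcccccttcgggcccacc
Slc2a5 (chr4:150119094-150119343, plus strand): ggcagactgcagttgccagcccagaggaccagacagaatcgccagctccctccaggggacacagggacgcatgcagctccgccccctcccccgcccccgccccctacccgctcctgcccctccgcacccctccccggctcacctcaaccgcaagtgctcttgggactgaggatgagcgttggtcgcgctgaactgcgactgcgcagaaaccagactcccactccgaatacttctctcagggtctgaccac
Hk2 (chr6:82774455-82774704, minus strand): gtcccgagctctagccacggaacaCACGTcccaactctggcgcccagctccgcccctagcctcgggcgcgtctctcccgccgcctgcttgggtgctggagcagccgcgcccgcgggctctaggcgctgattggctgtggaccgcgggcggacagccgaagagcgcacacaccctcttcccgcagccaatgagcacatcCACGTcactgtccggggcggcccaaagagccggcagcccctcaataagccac
Hk3 (chr13:55021386-55021635, minus strand): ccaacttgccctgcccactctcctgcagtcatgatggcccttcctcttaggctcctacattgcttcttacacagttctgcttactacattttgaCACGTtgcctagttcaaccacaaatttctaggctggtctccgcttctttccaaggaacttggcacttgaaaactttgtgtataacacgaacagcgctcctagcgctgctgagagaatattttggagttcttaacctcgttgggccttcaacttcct
Ldha (chr7:46845554-46845803, plus strand): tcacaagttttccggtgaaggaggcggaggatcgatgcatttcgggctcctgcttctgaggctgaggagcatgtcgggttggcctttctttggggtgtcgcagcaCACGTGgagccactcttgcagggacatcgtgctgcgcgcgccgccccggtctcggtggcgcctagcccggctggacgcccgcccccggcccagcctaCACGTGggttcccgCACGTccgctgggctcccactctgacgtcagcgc
Ldhb (chr6:142507958-142508207, minus strand): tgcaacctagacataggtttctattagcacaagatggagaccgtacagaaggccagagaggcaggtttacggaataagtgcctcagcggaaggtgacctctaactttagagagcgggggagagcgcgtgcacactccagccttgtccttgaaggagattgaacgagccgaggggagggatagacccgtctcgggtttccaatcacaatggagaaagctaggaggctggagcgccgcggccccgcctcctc

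The Ldha window held 5 matches, beginning 145, 144, 48, 47 and 34 bases before the start, of which the first 4 are the overlapping pairs of both palindromes. Hk2 held 2 matches, at 226 and 52 bases, Slc2a1 held 1 at 36 bases and Hk3 held 1 at 156 bases. The Slc2a5 and Ldhb windows held 0 matches to this form. Ldha has 2 windows in the table, of which the printed one, the first listed, is the 1 with a match.

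Counting the first listed window of each gene, 15 of the 36 members with a window had this form of the core on either strand (41.7%). It was found in 21.9% of the 9328 tested genes with a window and in 16.6% of all 32851 windows. The palindrome was found in 6 of these members (16.7%), in 8.6% of the tested genes and in 6.02% of all windows. Of the members called in NMO+CL against Normal, 3 of the 7 that rose and 1 of the 3 that fell had this form of the core. The printed genes were chosen for their changes, and of the other called members, Gpi1, Gapdh, Pkm and Pgd, which rose, all had 0 matches. A match is a stretch of letters and was not tested as a binding site. Slc2a3 had no entry.

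Among the sugar transporters, Slc2a5 fell in NMO+CL against both other groups and Slc2a1 rose against Normal. Slc2a5 (GLUT5, a fructose transporter that is a known microglial transcript in brain; GRCm38 chr4:150119283-150144169) stood at 595, 630.0 and 569 CPM in Normal. It stood at 353, 419.8 and 413 CPM in NMO and at 125, 102 and 218 CPM in NMO+CL. None of the 3 groups overlapped. Its log2 fold change was -0.60 ± 0.23 (SE) in NMO against Normal (edgeR adjusted p = 0.398). It fell by 1.41 ± 0.24 on the log2 scale, or 2.66-fold, from NMO to NMO+CL (edgeR adjusted p = 0.00508). From Normal to NMO+CL it fell by 2.01 ± 0.24, or 4.03-fold (edgeR adjusted p = 5.31e-05). Both calls were kept in all 16 alternative settings.

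Slc2a1 (GLUT1, the widespread basal glucose transporter; chr4:119108711-119137983) stood at 34.4, 24.7 and 40.5 CPM in Normal and at 39.6, 29.0 and 27.4 CPM in NMO. In NMO+CL it stood at 93.7, 61.9 and 47.6 CPM, each above all 6 other libraries. It rose 2.04-fold from Normal to NMO+CL, a log2 fold change of 1.03 ± 0.31 (edgeR adjusted p = 0.0461). Against NMO the log2 fold change was 1.08 ± 0.31 (edgeR adjusted p = 0.104). The call against Normal held in 9 of 16 settings. It was lost without any 1 Normal library, NMO replicate 1 or NMO+CL replicate 1 or 2 (edgeR adjusted p = 0.0541 to 0.222), and with a replicate block (0.0512), and the smallest log2 fold change, 0.72, came without NMO+CL replicate 1.

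Slc2a3 (GLUT3, a high-affinity glucose transporter) stood at 8.13, 2.11 and 3.37 CPM in Normal, at 1.26, 5.27 and 8.33 in NMO, and at 29.3, 8.10 and 26.3 in NMO+CL. NMO+CL replicate 2 lay within the range of the other groups. The log2 fold change against Normal was 2.22 ± 0.74 (edgeR adjusted p = 0.0702), and it passed the threshold without NMO replicate 1 (edgeR adjusted p = 0.0460), with only these groups in the fit (0.0397), with all genes with a count (0.0169) and with DESeq2 (0.0306). Slc2a6 was low throughout, at 0 to 10.4 CPM, and was not called.

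Among the hexokinases, which phosphorylate glucose as it enters the cell, Hk2 rose and Hk3 fell in NMO+CL against Normal. Hk2 (an inducible, mitochondria-associated hexokinase; chr6:82725025-82774454) stood at 522, 606 and 635 CPM in Normal, at 808, 859 and 816 in NMO and at 862, 907 and 785 in NMO+CL. Both injected groups lay above Normal and overlapped each other. The log2 fold change was 0.49 ± 0.16 in NMO against Normal (edgeR adjusted p = 0.239) and 0.04 ± 0.16 in NMO+CL against NMO (edgeR adjusted p = 0.965). It rose 1.45-fold from Normal to NMO+CL (0.53 ± 0.16, edgeR adjusted p = 0.0421), a call that held in 6 of 16 settings and was lost without any 1 Normal library, NMO replicate 1 or NMO+CL replicate 1 or 2 (edgeR adjusted p = 0.0700 to 0.166). It was also lost with library totals, all genes with a count, the block or only the groups compared (edgeR adjusted p = 0.0502 to 0.0680).

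Hk3 (a hexokinase of myeloid cells; chr13:55005985-55021385) stood at 49.9, 46.5 and 44.4 CPM in Normal and at 29.3, 50.04 and 23.9 in NMO, where replicate 2 stood with the Normal libraries. NMO+CL held 15.5, 8.91 and 9.93 CPM, below all others. Hk3 fell 3.00-fold from NMO to NMO+CL (by 1.59 ± 0.35 on the log2 scale, edgeR adjusted p = 0.0287) and 4.09-fold from Normal (by 2.03 ± 0.36, edgeR adjusted p = 0.00142). The second call held in all 16 settings. The first held in 7 and was lost without any 1 library other than NMO replicate 3 and NMO+CL replicate 1 (edgeR adjusted p = 0.0572 to 0.160). It was also lost with limma-voom (adjusted p = 0.0791) and with only those 2 groups in the fit (edgeR adjusted p = 0.138). The 3′ end of Hk3 overlaps exons of Unc5a on the other strand, and whether reads were counted by strand was not stated, so reads of both genes cannot be told apart. Unc5a, a netrin receptor, was itself called lower in NMO+CL against Normal, with 14.0 to 26.8 CPM in Normal, 7.42 to 25.9 in NMO and 3.56 to 5.76 in NMO+CL (log2 fold change -2.08 ± 0.57, edgeR adjusted p = 0.0266). The Unc5a call held in 11 of 16 settings and was lost with limma-voom (adjusted p = 0.0797) and without Normal replicate 1 or 2 or NMO+CL replicate 1 or 2 (edgeR adjusted p = 0.0539 to 0.121). Hk1 lay at 24.1 to 31.3 CPM in Normal, at 17.5 to 26.2 in NMO, which overlapped both other groups, and at 11.2 to 18.7 in NMO+CL. Against Normal the last had a log2 fold change of -0.77 ± 0.36 (edgeR adjusted p = 0.219).

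The upper glycolytic enzymes convert glucose 6-phosphate to triose phosphates, and 1 of 7 was called, in NMO+CL against Normal (14.3%, against 9.23% of all genes). Gpi1 (glucose 6-phosphate isomerase; chr7:34201330-34230336) stood at 67.1, 77.8 and 45.9 CPM in Normal, at 92.4, 85.9 and 79.3 in NMO and at 123, 152 and 128 in NMO+CL. The 3 groups did not overlap. Gpi1 rose 2.11-fold from Normal to NMO+CL (log2 fold change 1.08 ± 0.23, edgeR adjusted p = 0.0055), and the call held in all 16 settings. The last 500 bases of its transcripts resemble those of 6 other genes over at least 75 bases, the longest being 124 bases of Wdr33 at 95.2% identity.

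Aldoa, the aldolase of most tissues and the member of this role with the most counts, stood at 144, 175 and 134 CPM in Normal, at 156, 134 and 152 in NMO and at 163, 183 and 197 in NMO+CL. NMO+CL lay above NMO without overlap, with a log2 fold change of 0.30 ± 0.19 (edgeR adjusted p = 0.576). The phosphofructokinases Pfkl, Pfkm and Pfkp were not called. Pfkl, the liver-type subunit, ran from 36.9 to 64.0 CPM over all libraries. Pfkm, the muscle-type subunit, lay at 1.35 to 8.24 CPM in Normal, at 3.11 to 8.17 in NMO and at 0 to 2.11 in NMO+CL, which overlapped Normal (edgeR adjusted p = 0.499 against NMO). Pfkp, the platelet-type subunit, lay at 5.72 to 11.7 CPM in Normal and at 12.1 to 19.5 in NMO (edgeR adjusted p = 0.700), with NMO+CL across both at 6.25 to 18.8. The Pfkp 3′ end lies wholly over Pitrm1 on the other strand. Tpi1, triosephosphate isomerase, ran from 17.8 to 42.2 CPM. Aldoc, an aldolase of astrocytes, had 20, 0 and 0 counts in Normal, 12, 0 and 11 in NMO and 1, 0 and 0 in NMO+CL, and gave no basis for a fold.

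The bifunctional PFKFB enzymes set the level of fructose 2,6-bisphosphate, an activator of phosphofructokinase, and 0 of 3 were called. Pfkfb3 stood at 80.8, 64.9 and 129 CPM in Normal, at 89.1, 63.3 and 88.4 in NMO and at 92.5, 124 and 75.7 in NMO+CL, so all groups overlapped. Pfkfb4 stood at 57.0, 62.3 and 64.9 CPM in Normal, above both other groups, at 48.4, 21.7 and 30.4 in NMO and at 27.4, 43.6 and 30.9 in NMO+CL. Pfkfb4 had a log2 fold change of -0.87 ± 0.31 in NMO (edgeR adjusted p = 0.322) and -0.85 ± 0.31 in NMO+CL (edgeR adjusted p = 0.103), both against Normal. Pfkfb2 lay at 6.77 to 12.1 CPM in Normal and at 14.3 to 17.1 in NMO (edgeR adjusted p = 0.810), and NMO+CL overlapped both at 9.19 to 20.4.

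Of the 5 lower glycolytic enzymes tested, 2 rose in NMO+CL against Normal (40.0%, against 4.79% of all genes). Pkm (pyruvate kinase, which makes pyruvate and ATP; chr9:59656368-59679375) stood at 110.3, 109 and 115 CPM in Normal, at 174, 166 and 181 in NMO and at 214, 260.0 and 208 in NMO+CL. All 3 groups were apart. The log2 fold change was 0.64 ± 0.18 in NMO against Normal (edgeR adjusted p = 0.156) and 0.39 ± 0.18 in NMO+CL against NMO (edgeR adjusted p = 0.394). Pkm rose 2.04-fold from Normal to NMO+CL (1.03 ± 0.18, edgeR adjusted p = 0.00154), in all 16 settings. These counts do not separate its splice forms.

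Gapdh (glyceraldehyde 3-phosphate dehydrogenase; chr6:125161715-125166467) stood at 17.8, 24.2 and 26.2 CPM in Normal, at 34.2, 29.2 and 29.5 in NMO and at 42.2, 48.4 and 43.7 in NMO+CL, again without overlap. It rose 1.97-fold from Normal to NMO+CL (0.97 ± 0.29, edgeR adjusted p = 0.0440), a call that held in 5 of 16 settings and was lost without any 1 library other than NMO replicate 3 (edgeR adjusted p = 0.0539 to 0.162), and with all genes with a count (0.0681), limma-voom (0.0522) or the block (0.0634). Its 3′ end matches 91 other annotated genes over at least 75 bases at 95% identity or more, so its count depends on how reads with several alignments were placed. The same holds for enolase: the Eno1 end shares 497 aligned bases at 99.4% identity with Eno1b, which held 35.9 to 73.9 CPM. Eno1b was not called, with a log2 fold change of 0.05 in NMO against Normal (edgeR adjusted p = 0.992). It was 0.20 in NMO+CL against NMO (edgeR adjusted p = 0.863) and 0.25 in NMO+CL against Normal (edgeR adjusted p = 0.723).

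Pgam1, phosphoglycerate mutase, was apart in all 3 groups, with 39.1 to 43.0 CPM in Normal, 45.6 to 48.6 in NMO and 59.1 to 60.7 in NMO+CL. Its log2 fold change in NMO+CL against Normal was 0.55 ± 0.24 (edgeR adjusted p = 0.174). Pgk1, phosphoglycerate kinase, lay at 11.3 to 17.4 CPM in Normal and at 17.7 to 21.3 in NMO (edgeR adjusted p = 0.782), and NMO+CL spanned both at 12.5 to 32.9. Bpgm, which makes 2,3-bisphosphoglycerate, ran from 1.44 to 21.3 CPM and overlapped in all groups.

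**Figure D2:**
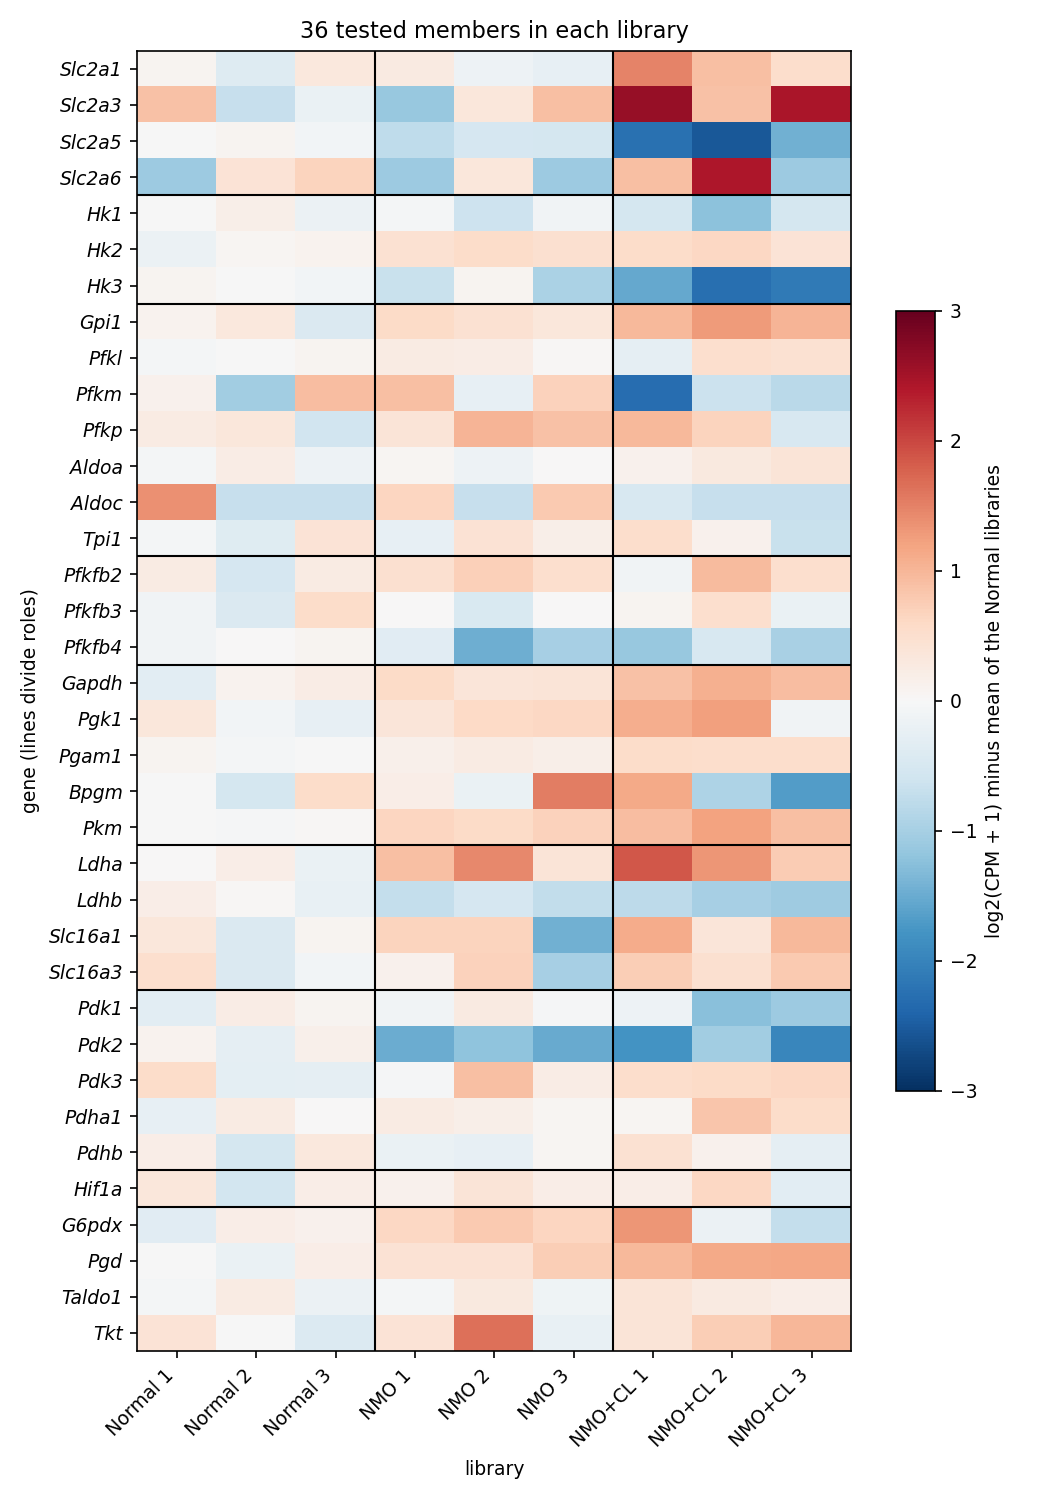
Level of each of the 36 tested members (rows, by role) in each of the 9 libraries (columns), as log2(CPM + 1) minus the mean of the 3 Normal libraries (red higher, blue lower). Slc2a5, Hk3, Ldhb and Pdk2 are blue in all NMO+CL libraries, and Gpi1, Gapdh, Pkm and Pgd are red there and, more faintly, in NMO. Ldha is red in all 6 injected libraries.

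Lactate dehydrogenase is a tetramer of the A subunit, known to favour lactate production, and the B subunit, known to favour its use. Ldha (chr7:46841475-46855627) stood at 42.7, 48.6 and 36.8 CPM in Normal, at 79.6, 116 and 56.2 in NMO and at 157, 108 and 72.4 in NMO+CL. All 6 injected libraries lay above Normal, and the 2 injected groups overlapped. The log2 fold change was 0.98 ± 0.30 in NMO against Normal (edgeR adjusted p = 0.218). Ldha rose 2.63-fold from Normal to NMO+CL (1.40 ± 0.30, edgeR adjusted p = 0.0067), in all 16 settings.

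Ldhb (chr6:142490249-142507957) stood at 222, 199 and 165 CPM in Normal, at 117, 136 and 115 in NMO and at 112, 96.6 and 91.6 in NMO+CL. None of the groups overlapped. Ldhb had a log2 fold change of -0.67 ± 0.20 in NMO against Normal (edgeR adjusted p = 0.183). It fell 1.95-fold from Normal to NMO+CL (by 0.96 ± 0.20 on the log2 scale, edgeR adjusted p = 0.0044), in all 16 settings. Its 3′ end matches Gm5514 over 309 bases at 98.1% identity.

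The monocarboxylate transporters Slc16a1 and Slc16a3, which carry lactate across the membrane, were not called. Slc16a1 ran from 14.4 to 25.5 CPM in Normal, from 6.72 to 32.2 in NMO and from 25.8 to 43.9 in NMO+CL, so that NMO overlapped both. In NMO+CL against Normal it had a log2 fold change of 0.84 ± 0.47 (edgeR adjusted p = 0.318). Slc16a3 ran from 17.6 to 62.6 CPM and overlapped in all groups.

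Of pyruvate dehydrogenase and its kinases, 0 of 5 were called in any comparison. Pdk1 stood at 44.8, 65.5 and 59.7 CPM in Normal, at 51.7, 67.6 and 54.9 in NMO and at 50.3, 22.8 and 25.6 in NMO+CL. NMO+CL lay below NMO, with a log2 fold change of -0.82 ± 0.31 (edgeR adjusted p = 0.249). Replicate 1 of NMO+CL stood close to the other groups, and without it the fall passed the threshold both against NMO (-1.26, edgeR adjusted p = 0.0402) and against Normal (-1.22, edgeR adjusted p = 0.0174).

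Pdk2 stood at 11.95, 9.03 and 12.3 CPM in Normal, above the 3.27, 4.19 and 3.20 CPM of NMO and the 2.48, 4.86 and 2.08 CPM of NMO+CL. Pdk2 had a log2 fold change of -1.64 ± 0.74 in NMO (edgeR adjusted p = 0.495) and -1.81 ± 0.75 in NMO+CL (edgeR adjusted p = 0.151), both against Normal. Pdk3 lay at 11.9 to 28.3 CPM over all libraries. The complex subunits Pdha1 and Pdhb lay at 24.1 to 52.5 and at 25.3 to 50.8 CPM, with overlap in all comparisons.

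Hif1a, the oxygen-regulated subunit of HIF-1, stood at 73.6, 39.3 and 67.0 CPM in Normal, at 63.4, 76.3 and 66.4 in NMO and at 67.0, 89.8 and 46.1 in NMO+CL. The groups overlapped throughout. Its log2 fold change in NMO+CL against Normal was 0.17 ± 0.29 (edgeR adjusted p = 0.821). HIF-1α is regulated mostly through protein stability, which these data do not measure.

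In the pentose phosphate pathway, 1 of 4 members rose, in NMO+CL against Normal (25.0%, against 4.79% of all genes). Pgd (6-phosphogluconate dehydrogenase, which makes NADPH; chr4:149149991-149166771) stood at 119, 103 and 138 CPM in Normal, at 162, 163 and 199 in NMO and at 237, 262 and 267 in NMO+CL. All 3 groups were apart. The log2 fold change was 0.54 ± 0.19 in NMO against Normal (edgeR adjusted p = 0.313) and 0.55 ± 0.19 in NMO+CL against NMO (edgeR adjusted p = 0.193). Pgd rose 2.12-fold from Normal to NMO+CL (1.09 ± 0.19, edgeR adjusted p = 0.00142), in all 16 settings.

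G6pdx, which feeds the pathway, stood at 15.6, 23.0 and 22.0 CPM in Normal and at 31.2, 35.1 and 31.5 in NMO. In NMO+CL it stood at 51.8, 17.7 and 11.8 CPM, so that group held both the highest and the lowest library. Taldo1, transaldolase, ran from 139 to 207 CPM and overlapped in all comparisons. Tkt, transketolase, ran from 31.3 to 133 CPM, with its highest value in NMO replicate 2.

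**Figure D3:**
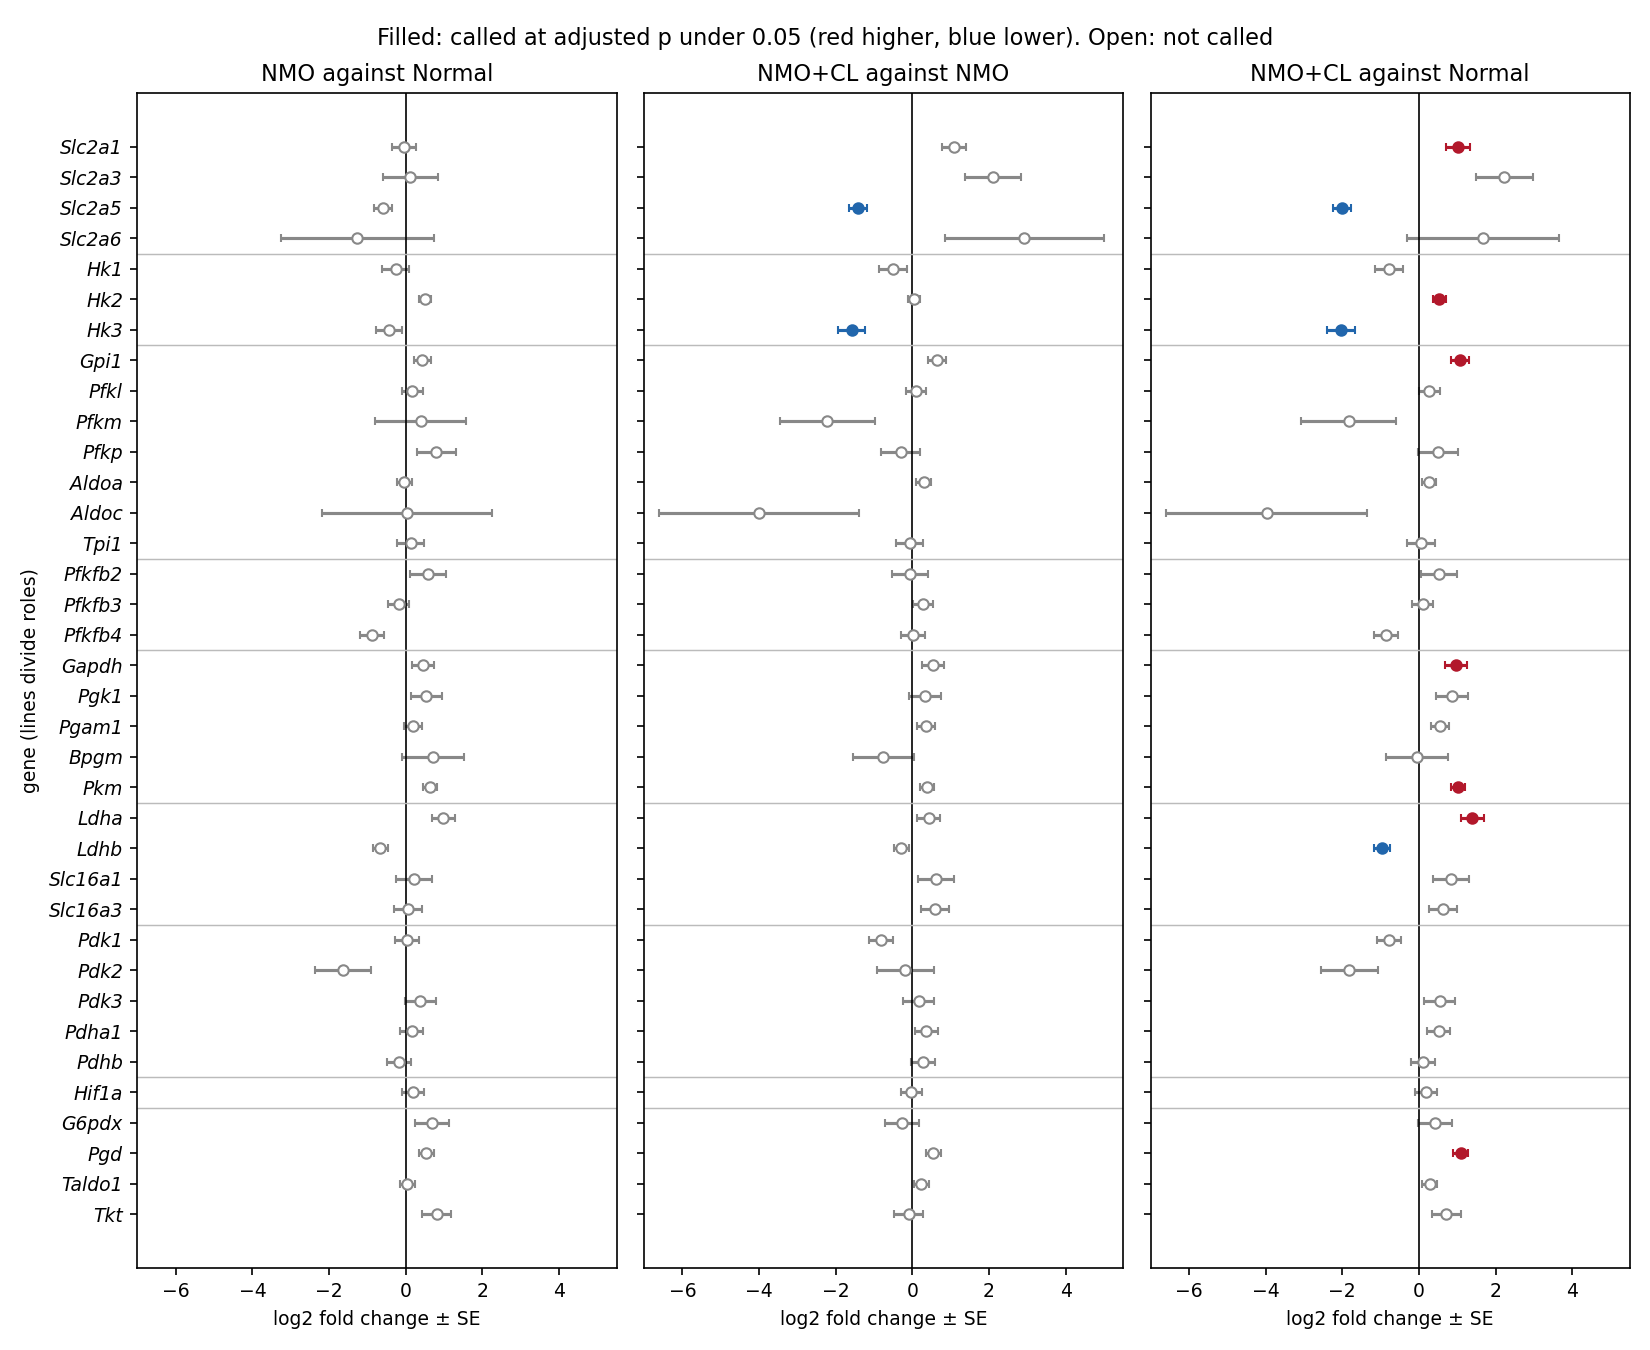
Log2 fold change ± SE (horizontal axis) of the 36 tested members (rows, by role) in each comparison from edgeR. Filled points were called at an adjusted p under 0.05, red for higher and blue for lower, which is 0 members in the left panel, 2 in the middle panel and 10 in the right panel.

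Within families the share of counts held by each paralog was compared between groups. A share follows 3′ end counts and need not equal the ratio of transcripts, since priming differs between genes. Ldha held 16.2%, 19.6% and 18.3% of lactate dehydrogenase counts in Normal. It held 40.4%, 46.1% and 32.8% in NMO and 58.5%, 52.8% and 44.1% in NMO+CL. Both injected groups lay above Normal, each with p = 0.1 in an exact two-sided permutation test, which 3 libraries a group cannot go below. NMO+CL and NMO overlapped (exact permutation p = 0.2).

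Slc2a5 held 93.3%, 95.7% and 92.5% of the counts of the 4 sugar transporters in Normal, 89.6%, 92.1% and 92.0% in NMO, and 49.9%, 55.9% and 74.7% in NMO+CL. Over the same groups the mean share of Slc2a1 was 5.25% ± 1.43, 7.51% ± 2.22 and 29.2% ± 11.3 (SD, n = 3). The share of Hk2 among hexokinases was 88.7% ± 1.58 in Normal, 93.5% ± 0.796 in NMO and reached 96.8% ± 0.875 in NMO+CL (SD, n = 3), and that of Hk3 was 7.15% ± 1.05, 3.85% ± 1.38 and 1.30% ± 0.389. The hexokinase shares of Hk2 and Hk3 did not overlap between any groups (exact permutation p = 0.1 in each comparison).

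Among the pyruvate dehydrogenase kinases, the share of Pdk2 was 13.4% ± 2.57 in Normal, against 4.38% ± 0.289 in NMO and 5.70% ± 3.46 in NMO+CL (SD, n = 3). Pdk3 held 18.7% ± 8.09, 24.1% ± 3.79 and 39.8% ± 9.23, and its NMO+CL libraries lay above all others. Over the 45 share tests made, the smallest Benjamini-Hochberg adjusted p of the exact permutation tests was 0.188. With 3 libraries a group the exact p cannot go below 0.1. No share could therefore have passed a threshold of 0.05, and these tests cannot decide whether shares differed.

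**Figure D4:**
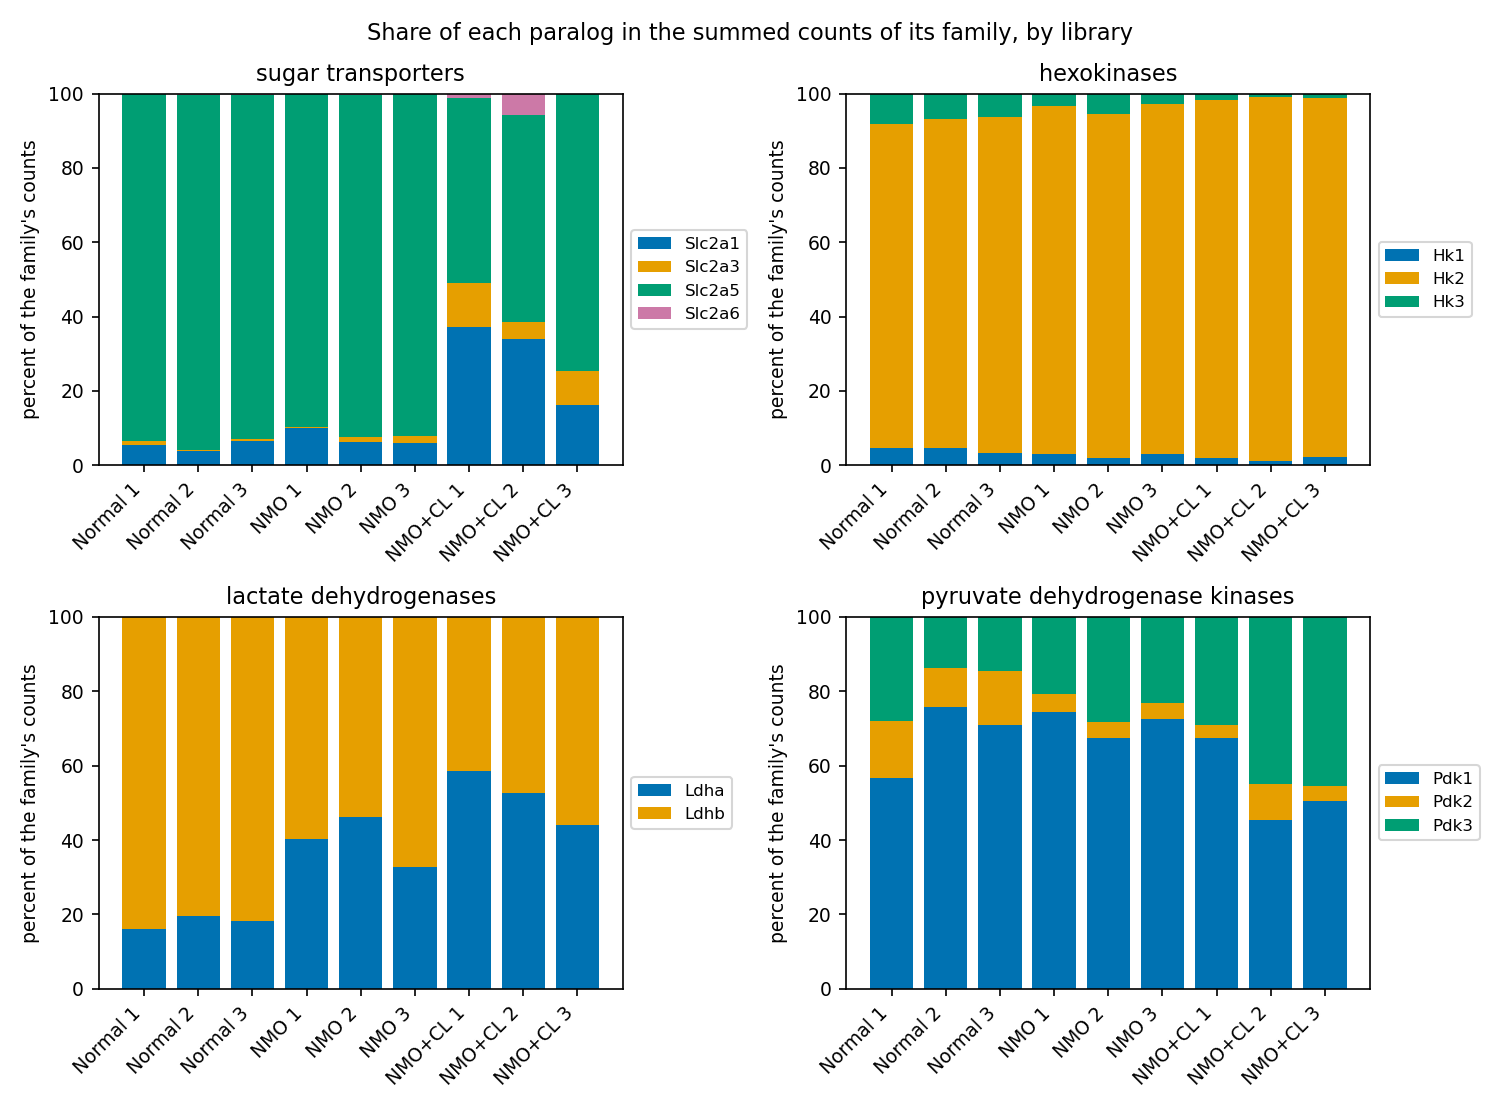
Percent of the counts of each family held by each paralog (stacked bars, vertical axis from 0 to 100) in each of the 9 libraries (horizontal axis). Ldha takes 16.2% to 19.6% in Normal and 44.1% to 58.5% in NMO+CL, and Slc2a5 takes 92.5% to 95.7% in Normal and 49.9% to 74.7% in NMO+CL.

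Other genes of these pathways were followed in lists of 91 genes, of which 72 were tested. In NMO against Normal edgeR and DESeq2 called 0, edgeR without the filter on low counts called Ddit4 (adjusted p = 0.0356), and 7 had an unadjusted p under 0.05 (9.72%, against 9.51% of all genes). Ddit4 was the 1 gene called between NMO+CL and NMO (1.39%, against 1.59%). Between NMO+CL and Normal 3 rose (Ddit4, Tigar and Rpia) and 2 fell (Bnip3l and Vhl), which was 6.94% of the 72, against 9.23% of all genes. These shares were close to or below those of all genes. The median log2 fold change of the 72 was 0.04, -0.07 and -0.03 in the 3 comparisons.

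Ddit4, a stress-induced inhibitor of mTORC1, stood at 87.6, 90.4 and 53.8 CPM in Normal, at 78.5, 118 and 198 in NMO and at 430.4, 839 and 189 in NMO+CL. NMO+CL replicate 3 overlapped NMO. Its log2 fold change was 1.89 against NMO (edgeR adjusted p = 0.0258) and 2.65 against Normal (edgeR adjusted p = 0.000746). The call against NMO was lost without NMO replicate 1 or 2 or NMO+CL replicate 2 (edgeR adjusted p = 0.0584 to 0.191) and with only the 2 groups compared (0.0933).

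Tigar, a fructose 2,6-bisphosphatase, was the only gene called of 10 other glycolysis and gluconeogenesis enzymes tested, with 1.96 to 7.65 CPM in Normal, 5.75 to 18.4 in NMO and 16.8 to 32.1 in NMO+CL (log2 fold change against Normal 2.49, edgeR adjusted p = 0.0176). Rpia, ribose 5-phosphate isomerase, was the only gene called of 7 other pentose phosphate enzymes tested, with 9.25 to 11.1 CPM in Normal, 17.1 to 22.4 in NMO and 25.1 to 51.9 in NMO+CL (1.76, edgeR adjusted p = 0.00798). Of 21 oxygen-sensing and hypoxia genes tested, Ddit4 rose in NMO+CL against Normal and 2 fell. Calls made up 10% to 14.3% of each of these 3 lists, against 9.23% of all genes. Bnip3l, a mitophagy receptor, and Vhl, the ubiquitin ligase subunit that targets HIF-1α, fell by 0.86 and 0.99 on the log2 scale (edgeR adjusted p = 0.0463 and 0.0237). Without 1 library, the call was lost for Tigar without Normal replicate 2 or 3 or NMO+CL replicate 1 (edgeR adjusted p = 0.0758 to 0.0940) and for Rpia without NMO+CL replicate 1 (0.0649). Vhl lost it without Normal replicate 2 or 3 or NMO+CL replicate 1 or 2 (0.0582 to 0.119), and Bnip3l without any 1 Normal library or NMO+CL replicate 2 or 3 (0.0806 to 0.145), with library totals (0.0713) and with the block (0.0646). None of the 7 other sugar transporters, 10 genes of pyruvate and lactate handling or 17 genes of glycogen and hexose phosphates was called.

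Of the 12 homeostatic microglia markers, whose sums are given above, 1 was called lower in NMO against Normal (Siglech), 4 between NMO+CL and NMO, and 8 between NMO+CL and Normal. These were 8.33%, 33.3% and 66.7% of the markers, against 0.0244%, 1.07% and 4.43% of all genes called lower. Over the 16 settings these counts ran from 0 to 2, from 3 to 6 and from 5 to 10. The count of 0 came with library totals and without any 1 Normal library or NMO replicate 1 or 3, and the count of 5 without NMO+CL replicate 2. Slc2a5, itself a known microglial transcript, fell in the same comparisons with NMO+CL.

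Markers of other cells were measured in the same libraries. The summed level of 12 neutrophil markers was 98.9 to 597 CPM in Normal, 169 to 500 in NMO and 316 to 1440 in NMO+CL, with 0 of 11 tested called. Of the 11, 10 had positive log2 fold changes in each comparison with NMO+CL, with medians of 0.91 against NMO and 1.04 against Normal. At 1.96 and 2.03 against Normal, S100a8 and S100a9 were each called in 4 of 16 settings. The highest neutrophil sum was in NMO+CL replicate 1, which also held the highest Slc2a1, Slc2a3, Tpi1, Pgam1, Ldha, Slc16a1, Pdhb, G6pdx and Taldo1. Normal replicate 1 held the next highest sum, 597 CPM, with Slc2a1 at 34.4, Slc2a3 at 8.13, Ldha at 42.7 and G6pdx at 15.6 CPM. Summed monocyte markers lay at 46.8 to 77.0, 63.0 to 140 and 69.3 to 121 CPM, with Fn1 called higher in NMO+CL against Normal. Of the 12, 8 had positive and 4 negative log2 fold changes there, Ccr2 among the latter at -1.25 (edgeR adjusted p = 0.318). Border macrophage markers summed to 160 to 309, 13.05 to 196 and 232 to 414 CPM, the lowest being NMO replicate 2. That library also held the highest Hk3, Pfkp, Pdk1, Pdk3 and Tkt.

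Summed astrocyte markers, Aldoc among them, lay at 171 to 217 CPM in Normal, 106 to 133 in NMO and 84.6 to 127 in NMO+CL. Slc1a3 held 79.0% to 96.5% of that sum in each library. Slc1a2 and Slc1a3 fell in NMO+CL against Normal, while 2 of the 6 tested had positive log2 fold changes, Aqp4 (0.59) and Gja1, neither called. Gfap was at 0 in all libraries but NMO+CL replicate 1. Ldhb fell in the same comparison. Oligodendrocyte markers summed to 84.9 to 137, 73.6 to 100.4 and 35.7 to 68.9 CPM, with Cnp called lower, and neuronal markers to 18.8 to 217, 4.43 to 17.5 and 14.3 to 29.9 CPM, with Meg3 called lower in NMO against Normal. Lymphocyte markers summed to 9.29 to 21.6 CPM over all libraries, with Cd3e at 0 throughout, and endothelial and erythrocyte markers to 442 to 719, 49.2 to 839.7 and 893 to 1013 CPM, again lowest in NMO replicate 2. Early genes of tissue dissociation summed to 4472 to 6501, 4297 to 5820 and 4809 to 5523 CPM, with Ier2 called higher in NMO+CL against Normal, while 7 of the 12 had negative log2 fold changes and the median was -0.19. The calls of Fn1, Slc1a2, Slc1a3, Cnp, Meg3 and Ier2 were each lost when 1 library was left out, in 4 to 6 of 9 cases. The part of these cells and signals in the members' values was not tested.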

How the data were processed

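RNA of sorted microglia was measured with QuantSeq 3′ mRNA-Seq libraries, single 75-base reads. The authors aligned reads with Bowtie2 and took counts per gene from unique and multiple alignments with bedtools, and the processing notes name the mm10 build. The counts were deposited raw: they are whole numbers, and their totals differ between libraries. Strand use and annotation are not given in the sources used here. The 23282 entries hold 23238 symbols, and the 35 symbols repeated on 79 entries were summed. Gene coordinates are from GENCODE M21 (GRCm38) and promoters from RefSeq (GRCm38.p6).

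Genes kept by filterByExpr (minimum count 10, minimum total 15) numbered 12292. They were tested with edgeR 4.0.16 in R 4.3.3 by a quasi-likelihood F-test, two-sided, with TMM scaling and 1 coefficient per group over all 9 libraries, and p-values were adjusted by Benjamini-Hochberg over all tested genes. The common biological coefficient of variation was 0.519. The SE printed with an edgeR log2 fold change was derived from the test, as its absolute value over the square root of F. CPM are counts over TMM-scaled library sizes. Paralog shares were compared by exact permutation tests. The last 500 bases of member transcripts were compared with all GENCODE transcripts by blastn 2.17.0 (at least 75 bases at 95% identity).

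Alternatives were RLE scaling, library totals, no filter, DESeq2 1.42.0, limma-voom (limma 3.58.1), a replicate block, only the groups compared, and each library left out, 16 settings in all. The members and lists were chosen with earlier results of these data known. Values by library are given for members called in any comparison and for the member with most counts in each role. Others are given by range, and by name where libraries did not overlap. Slc2a3, Pfkfb4, Pdk2 and G6pdx are given by library because of their values. Pathway genes are named where called.

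Total counts per library ran from 5788234 to 7837219. Replicates differed by more than counting error (chi-square per degree of freedom 22.8 to 54.8), and p-values measure the spread between pools of mice.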

Additional observations from a re-analysis of the deposited data

How the results depend on the processing

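Calls of Slc2a5 in both comparisons with NMO+CL, and of Gpi1, Hk3, Ldha, Ldhb, Pgd and Pkm in NMO+CL against Normal, were kept in all 16 settings. In NMO against Normal, testing all genes with a count called 1 member (Ldha higher) and DESeq2 called 3 (2 higher, Hk2 and Pkm, and 1 lower, Ldhb). For NMO+CL against NMO, 1 member was called higher with all genes with a count and with DESeq2 (Slc2a1), and 1 in all, lower, with limma-voom and with only the 2 groups compared (Slc2a5). Library totals moved the median of all genes by 0.11 (log2) in NMO against Normal and gave the members a median of 0.27 there. For NMO+CL against Normal the members' median was 0.35 with limma-voom and 0.38 with the replicate block. The block lowered the calls higher from 7 to 4. No label says that the numbers pair the libraries, and the block was kept as an alternative: correlations of deviations between same-numbered libraries ran from -0.0148 to 0.0302 and a library correlated best with its own number in 10 of 18 cases, where 6 would be the average with no pairing.

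With 1 library left out, members called in NMO against Normal stayed at 0, with a median from 0.076 to 0.31. For NMO+CL against NMO, 1 to 3 were called, all lower, with a median from 0.030 to 0.19. For NMO+CL against Normal, 7 to 10 were called, 4 to 7 higher and 3 to 4 lower, with a median from 0.30 to 0.51.

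Over all genes, calls in NMO against Normal were 61 as reported, 96 with library totals, 223 with all genes with a count, 222 with DESeq2, 34 with only the 2 groups compared and 20 to 75 with 1 library left out. In NMO+CL against NMO they were 196, 496 with all genes with a count, 465 with DESeq2, 73 with only the 2 groups compared and 51 to 231 with 1 library left out. In NMO+CL against Normal they were 1134, and 649 to 1263 with 1 library left out.

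In at least 1 setting, 13 members changed sign between NMO and Normal, 12 between NMO+CL and NMO, and 7 between NMO+CL and Normal, of which 0 were called in that comparison. Values follow for those that were called elsewhere, had the most counts of their role or did not overlap in that comparison. With library totals, Slc2a1 came to 0.047 and Aldoa to 0.072 in NMO against Normal, and Hk2 to -0.0056 in NMO+CL against NMO. Hif1a came to 0.0073 in NMO+CL against NMO with RLE scaling and with DESeq2. With 1 library left out, NMO against Normal ran from -0.25 to 0.10 for Slc2a1, from -0.13 to 0.085 for Aldoa, from -0.38 to 0.13 for Pfkfb3, from -0.12 to 0.15 for Pdk1 and from -0.032 to 0.36 for Hif1a. NMO+CL against NMO ran from -0.0081 to 0.10 for Hk2 and from -0.28 to 0.19 for Hif1a. NMO+CL against Normal ran from -0.12 to 0.42 for Pfkfb3 and from -0.083 to 0.39 for Hif1a. The cause of these changes was not tested. Precision was lowest for Slc2a3, Slc2a6, Pfkm, Aldoc, Bpgm and Pdk2, whose standard errors exceed 0.7 on the log2 scale.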
